A study of Schizosaccharomyces pombe with 8 samples.

Results

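SPNCRNA.1531 and SPNCRNA.1532 are a pair of overlapping, predicted non-coding RNA genes on chromosome II of the fission yeast Schizosaccharomyces pombe. They were chosen by the measured reads themselves, as the genes with the highest ratios of reads in an immunoprecipitation (IP) of the RNA-binding protein Lsm8 to reads in a control IP, and are 2 of the 7014 genes of that experiment and 2 of the 40 RNAs with counts in the RNA-Seq. The Lsm8 IP was made from cells whose Lsm8 carried a cMyc tag (lsm8-myc13), and the strain of the control IP was not named in the sources used here. Each IP was sequenced as 1 library of unstranded 40 bp reads, and there was no replicate. Reads counted in genes numbered 6604836 for the Lsm8 IP. For the control IP 942080 were worked back, without those of 98 genes with reads in the control IP only. The RNA-Seq compared pof8Δ cells (pof8::kanMX6) with wild type cells, both grown in the rich medium YES, with 3 stranded libraries each. The tagged, the pof8Δ and the wild type strain shared mating type h- and the markers ade6-M216 and leu1-32 together with ura4-D18 and his3-D1. Totals of the RNA-Seq libraries ranged from 62672693 to 72951191 reads in pof8Δ and from 49448968 to 60098565 reads in wild type. Nothing in the labels says that the 3 libraries of a group came from separate cultures, so their spread may be technical. Counts of pof8 itself were not analysed here.

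Lsm8 is the subunit that sets the nuclear Lsm2-8 ring apart from the cytoplasmic Lsm1-7 ring. The ring binds runs of uridine at the 3′ end of RNA, and its best known partner is U6, the spliceosomal snRNA made by RNA polymerase III, which pairs with U4 snRNA. In fission yeast it also covers the 3′ end of mature TER1, the RNA subunit of telomerase encoded by ter1, and Pof8 is a La-related protein of the telomerase complex. SPNCRNA.1531 and SPNCRNA.1532 have no function assigned in the deposited table, which describes both as predicted intergenic RNAs and SPNCRNA.1531 also as a possible alternative UTR.

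In the ASM294v3 annotation of RefSeq, SPNCRNA.1532 lies on the minus strand at chrII:2584771-2586312 and is 1542 bp long, which is also the length behind the deposited RPKM values. SPNCRNA.1531 was not matched in that annotation and is therefore placed only on chromosome II. Its deposited RPKM corresponds to a length of 2409 bp. On the plus strand, the non-coding RNA SPNCRNA.402 (chrII:2584403-2585684) overlaps SPNCRNA.1532 over 914 bp, and tkt1, the gene of transketolase (chrII:2586380-2588834), begins 67 bp beyond the upstream end of SPNCRNA.1532. On the other side follows erv41 (chrII:2582992-2584259, minus strand), which encodes a protein of ER to Golgi transport.

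The reads of SPNCRNA.1532 in the Lsm8 IP lay almost wholly outside the stretch that it has in common with SPNCRNA.402. SPNCRNA.402 had 12 Lsm8 IP reads and 7 control IP reads, although it covers 914 bp of SPNCRNA.1532, which had 71287 Lsm8 IP reads and 30 control IP reads. As strand was ignored, a read in the common stretch would not count for SPNCRNA.1532 alone, and at least 71275 of the 71287 Lsm8 IP reads (99.983%) lay outside SPNCRNA.402. With the intervals of ASM294v3 and unspliced reads, they fall in a 667 bp window, chrII:2585685-2586351, that covers the upstream 628 bp of SPNCRNA.1532 and the bases that a 40 bp read can reach beyond it. The files were made on ASM294v2, and the interval of SPNCRNA.402 in that annotation was not analysed here. The genes on either side were not enriched. tkt1 had 1172 Lsm8 IP reads and 1780 control IP reads (ratio of normalized reads 0.262), and erv41 had 63 and 13 (ratio 1.93).

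**Figure D1:**
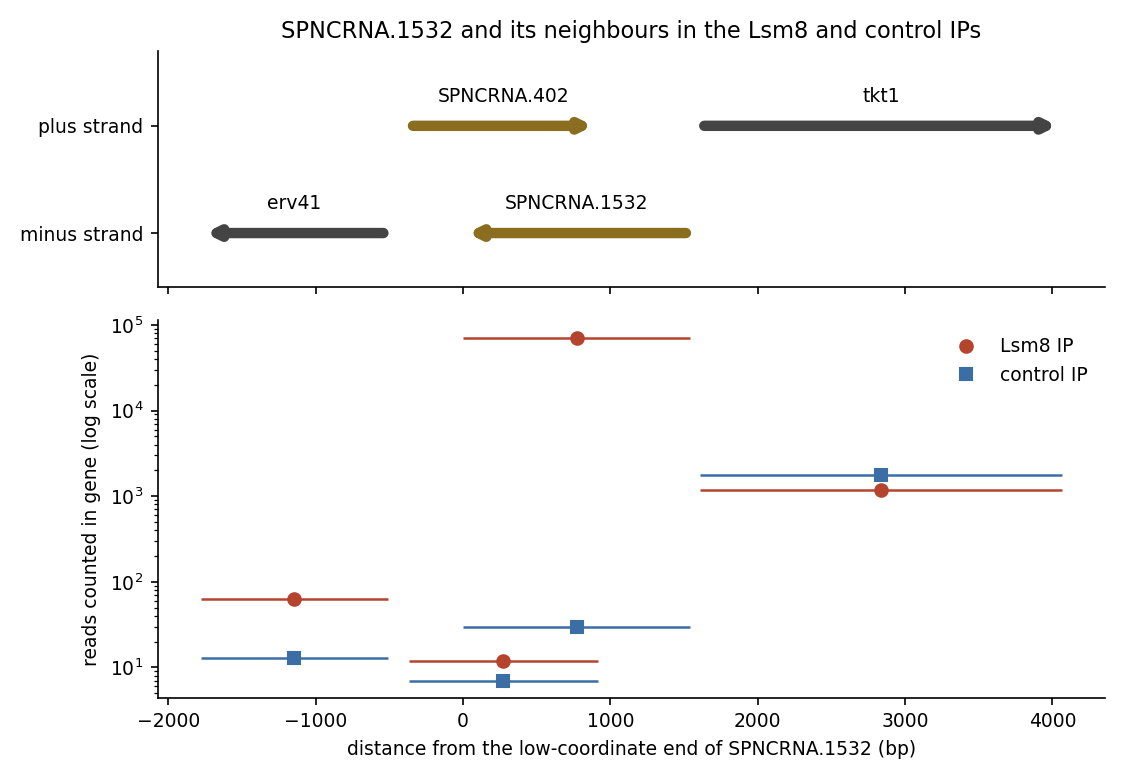
Position and strand of erv41, SPNCRNA.402, SPNCRNA.1532 and tkt1 (upper panel, x axis in bp from the low-coordinate end of SPNCRNA.1532) and reads counted in each gene (lower panel, log scale) in the Lsm8 IP (circles) and the control IP (squares), 1 library each. SPNCRNA.1532 stands at 71287 reads for the Lsm8 IP and 30 for the control IP, while SPNCRNA.402, which shares 914 bp with it, stands at 12 and 7.

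The sequence of the window was compared with the genes of the 5 spliceosomal snRNAs and with ter1. The longest stretch shared with snu6, the gene of U6, was 18 bases (chrII:2586304-2586321), of which 9 lie inside SPNCRNA.1532. In snu6 the stretch is at positions 68 to 85 (chrI:2562335-2562352, minus strand), inside the 50 bp intron of the gene. The longest stretch shared with snu4, the gene of U4, was 8 bases, and with ter1 it was 15 bases in reverse orientation. Among 18844 other windows of the same length, laid end to end, none shared 18 or more bases with snu6 on either strand. The limit of 18 was set by the match in this window, after the genes had been compared, so this count is a description. A stretch across the edge between windows would not be seen. Both places of the shared stretch are printed with 6 bases on each side, 5′ to 3′, with the stretch in capitals, to show where the match ends.
window, plus strand, chrII:2586298-2586327: aacaatGGTTCGAGTCATACTAACagcgga
snu6, chrI:2562329-2562358, minus strand: taccaaGGTTCGAGTCATACTAACtcgttg
The shared stretch begins with GGTTCGAGTC, which has the form GGTTCGANTC of box B, an element inside genes of RNA polymerase III such as those of tRNAs. Further on it holds TACTAAC, a known branch point sequence of introns. GGTTCGANTC, searched on both strands after the shared stretch had been seen, occurred once in the window and in 0.547% of the other windows (103 of 18844). It was in 76 of 162 tRNA genes, and in 104 of all 6754 annotated genes. Among the 32 annotated genes that were enriched in the Lsm8 IP, it was in snu6 and in the tRNA gene SPBTRNAGLY.09. The form searched was taken from the stretch shared with snu6, so its presence in snu6 and in the window was given beforehand. The copy next to SPNCRNA.1532 ends 1 bp outside the annotated gene and was therefore not counted with it.

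A run of 8 T follows 15 bases after GGTTCGAGTC on the plus strand, and 43 bases separate it from tkt1. Such runs are common, with 29.8% of the other windows holding 8 T in a row on either strand. In snu6, a run of 9 T begins 1 base after the annotated 3′ end. That end lies 67 bases after GGTTCGAGTC, so the spacing is wider in snu6 than in the window. Both stretches are printed 5′ to 3′ with the box B form and the T run in capitals, to show the order of the elements at either place.
window, plus strand, chrII:2586202-2586351: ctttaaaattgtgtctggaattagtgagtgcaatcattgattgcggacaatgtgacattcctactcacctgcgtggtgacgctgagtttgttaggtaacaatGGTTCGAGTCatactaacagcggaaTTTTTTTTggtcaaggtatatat
snu6, chrI:2562262-2562372, minus strand: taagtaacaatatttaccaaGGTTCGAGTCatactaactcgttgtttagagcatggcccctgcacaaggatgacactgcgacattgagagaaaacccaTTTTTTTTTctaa
Both elements stand on the plus strand, opposite to the annotated strand of SPNCRNA.1532, and the IP reads do not tell the strand. The counts are per gene and do not tell where in the window the reads lay. The shared stretch is shorter than the 40 bp reads. The longest stretch of the window found elsewhere on chromosomes I, II and III was 19 bases, within ppk1. Only exact matches were searched. These are matches of letters only.

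The Lsm8 IP held 71324 reads of SPNCRNA.1531, against 35 in the control IP. For SPNCRNA.1532 the reads were 71287 and 30. Each gene alone corresponds to 1.08% of all reads counted in the Lsm8 IP, against 0.00372% and 0.00318% in the control IP. By reads in the Lsm8 IP they stood in positions 3 and 4 of 6916 genes, behind snu4 with 3494435 and snu6 with 1131410 reads. By reads in the control IP they stood in positions 3624 and 3951. These counts chose the genes and are given as a description, with no test.

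When each library was divided by its median over genes that had any read (108 for the Lsm8 IP and 43 for the control IP), SPNCRNA.1531 had 660.4 normalized reads in the Lsm8 IP against 0.814 in the control, or a ratio of 811 (exact 95% Clopper-Pearson interval 583 to 1165). For SPNCRNA.1532 the values were 660.1 and 0.698, a ratio of 946 (663 to 1402). The intervals overlap and cover counting error only, and they are set by the 35 and 30 control reads. Just below the pair stood snu4, at 482 (464 to 500), and ter1, at 165 (138 to 198). With total counts as the scale, of which snu4 alone takes 52.9% in the Lsm8 IP, the ratios of the pair were 291 and 339. Under the rule of at least 10 more normalized reads and a ratio above 2, both genes were among the 34 of 6480 genes with reads that were enriched (0.525%).

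Of the 1293 genes with reads that carry an SPNCRNA identifier, with ter1 and the snoRNA gene SPNCRNA.445 left out, 6 were enriched, the pair included. Their share of 0.464% is near the 0.525% over all genes. The median ratio over the 1214 with reads in both libraries was 1.08, against 0.929 over all genes. The other 4 were SPNCRNA.240 (ratio 147), SPNCRNA.895 (26.9), SPNCRNA.905 (SPAC8E11.01c-antisense-1, 6.58) and SPNCRNA.1464 (2.82). None of these 4 came near the pair in reads, with SPNCRNA.240 highest at 9230 Lsm8 IP reads against 25 control IP reads. Of the 5 spliceosomal snRNAs, 4 were enriched, and the exception was snu1, the gene of U1, at a ratio of 0.355. Of 24 snoRNA genes with reads 5 were enriched, with a median ratio of 3.70 among the 23 with reads in both libraries. None of the 8 genes of the Lsm proteins was enriched, and the highest had a ratio of 3.77.

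The genes had almost the same count in the Lsm8 IP. SPNCRNA.1531 had 37 reads more than SPNCRNA.1532, which is 0.0519% of its reads, so the count of SPNCRNA.1532 was 99.95% of that of SPNCRNA.1531. In the control IP the difference was 5 reads, and the smaller count was 85.7% of the larger. The methods of the study speak of unambiguous reads, but reads in an overlap were not always lost to both genes in this table. Of 636 genes that lie wholly inside another listed gene in ASM294v3, 590 had reads in the Lsm8 IP. The table does not show which reads were counted for both genes, so the summed reads of the locus in the Lsm8 IP lie between 71324 and 71324 plus 71287. Counts were less alike in most overlapping genes. Of 1089 overlapping pairs with at least 100 reads in each gene, 100 had a smaller count of 99% or more of the larger, 331 (30.4%) had 90% or more, and the median was 78.2%. Those pairs overlap by any length in ASM294v3. How far SPNCRNA.1531 and SPNCRNA.1532 overlap is not known here, so the pairs are not matched to them in overlap.

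The counts of the pair differed in the stranded RNA-Seq. How reads common to both genes were counted there was not tested, as the strand of SPNCRNA.1531 is not in the annotation used here. SPNCRNA.1531 had 137, 137 and 182 reads in pof8Δ libraries 1 to 3, against 114, 157 and 124 in wild type libraries 1 to 3. SPNCRNA.1532 had 741, 748 and 800 reads in the pof8Δ libraries, against 554, 676 and 691 in the wild type libraries. In every library SPNCRNA.1532 was the higher of the 2, by 4.40 to 5.46 times in pof8Δ and by 4.31 to 5.57 times in wild type. Its share of the summed counts was 83.5% ± 1.73 in pof8Δ and 83.0% ± 1.82 in wild type (SD, n = 3 each). The groups overlap and the difference of 0.504 percentage points was smaller than the spread between libraries (exact two-sided permutation test p = 0.80, adjusted over 3 tests 0.80, where 0.10 is the smallest p that 3 against 3 libraries allow). Summed over the 6 libraries, the count of SPNCRNA.1531 was 20.2% of that of SPNCRNA.1532, against 99.95% the other way round in the Lsm8 IP.

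Other overlapping pairs among the 40 RNAs showed the same contrast between the Lsm8 IP and the RNA-Seq. All 7 of them lie on opposite strands in ASM294v3. psd1, which encodes phosphatidylserine decarboxylase, and the snoRNA gene snR36 had 4409 and 4393 reads in the Lsm8 IP, a smaller count of 99.6% of the larger, and in the RNA-Seq the smaller count was 3.63% of the larger. For aar2 and the ribosomal protein gene rps1401 the shares were 99.5% in the Lsm8 IP and 26.6% in the RNA-Seq. The lowest share in the Lsm8 IP was 43.1%, for the 14-3-3 gene rad24 and SPNCRNA.905, and the highest in the RNA-Seq was 50.3%, for mug134 and SPAC10F6.17c. In all 8 pairs, the pair described here included, the share was higher in the Lsm8 IP than in any RNA-Seq library. In the control IP, also counted with strand ignored, the counts were alike for only some of the other pairs. They were 1423 and 1401 for SPNCRNA.793 and obr1, 294 and 296 for rds1 and SPAC343.20, and 436 and 398 for aar2 and rps1401. They were 49 and 15 for psd1 and snR36, and 120 and 58 for mug134 and SPAC10F6.17c. For mvd1 and cox8 they were 354 and 44, and for rad24 and SPNCRNA.905 they were 876 and 91. The 40 RNAs were listed for their signal in the Lsm8 IP, so both genes of each pair had signal there. The contrast is therefore a description of listed pairs and was not tested on other overlapping genes.

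**Figure D2:**
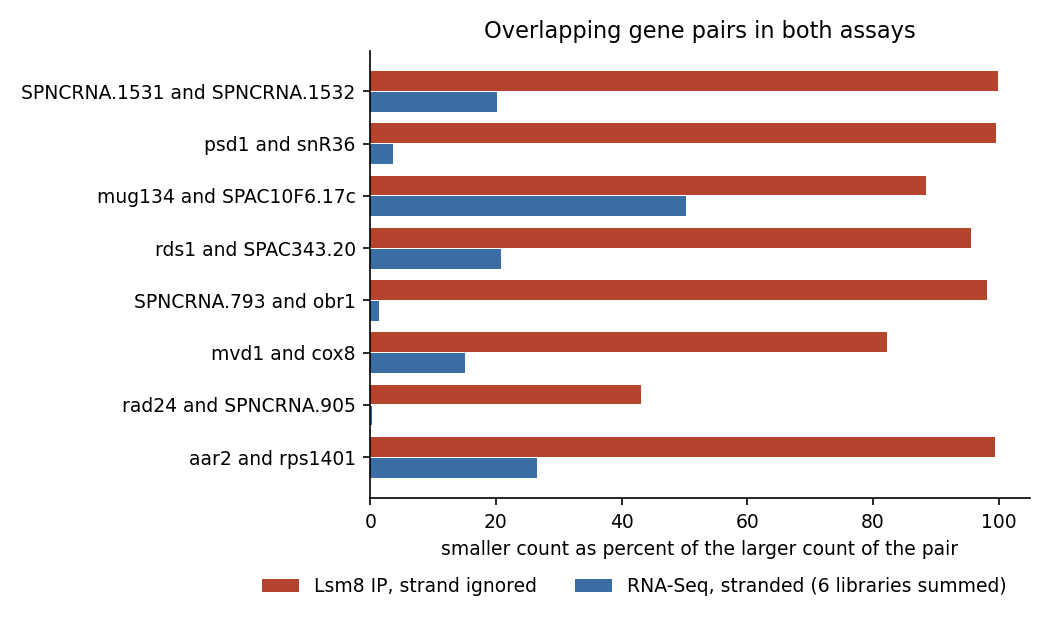
Smaller count as percent of the larger count (x axis) for SPNCRNA.1531 and SPNCRNA.1532 (top) and the 7 other overlapping pairs among the 40 RNAs, in the Lsm8 IP (upper bar, strand ignored, 1 library) and in the RNA-Seq (lower bar, stranded, 6 libraries summed). The pair on top has 99.95% in the Lsm8 IP and 20.2% in the RNA-Seq.

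The comparison of pof8Δ with wild type asks whether the level of the listed RNAs depends on Pof8. The level of the pair in it was not used to choose the genes. The RNA-Seq counts are stranded and taken over the whole gene, while the IP reads do not tell the strand. Whether both assays count the same RNA of the locus was not tested, so the values below hold for the RNA-Seq counts only. Neither gene passed the test. SPNCRNA.1531 had 2.15, 2.19 and 2.495 CPM (counts per 1e+06 reads of the library) in pof8Δ libraries, against 2.27, 2.61 and 2.51 in wild type, and the groups overlap. Its means were 2.28 ± 0.190 CPM in pof8Δ and 2.46 ± 0.174 CPM in wild type (SD, n = 3 each). This is a log2 fold change of -0.11 with a standard error of 0.164 and a 95% interval from -0.46 to 0.23 (edgeR quasi-likelihood test, adjusted p = 0.795, Benjamini-Hochberg over 40 RNAs). SPNCRNA.1532 had 11.6, 11.9 and 11.0 CPM in pof8Δ libraries, against 11.0, 11.3 and 13.97 in wild type, where library 3 stands above the other 5. Its means were 11.5 ± 0.495 CPM in pof8Δ and 12.1 ± 1.64 CPM in wild type. This is a log2 fold change of -0.07 with a standard error of 0.143 and a 95% interval from -0.37 to 0.23 (edgeR, adjusted p = 0.855). Its sign depended on the scaling and on wild type library 3, being 0.03 with TMM factors over the 40 RNAs, 0.02 with DESeq2's size factors and 0.05 without that library. The lower bound of neither interval reaches the change of ter1.

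In the same libraries ter1 had 60.3, 57.9 and 59.6 CPM in pof8Δ, against 234, 254 and 205 in wild type, with no overlap. It fell by 1.96 on the log2 scale, with a standard error of 0.113 (edgeR, adjusted p = 1.22e-10). Calls needed a log2 fold change beyond 1 in either direction with adjusted p under 0.05. Lower calls numbered 1 of the 40 RNAs, which was ter1 (2.5%), and higher calls 0 (0.0%), where the same edgeR test put 5 lower and 2 higher RNAs under 0.05 before adjustment. The pair was also not among the 8 RNAs (20%) whose 3 pof8Δ libraries all lay below the wild type libraries, nor among the 2 (5.0%) for which all lay above. Over the 40 RNAs the median was -0.07 on the log2 scale, close to both members, and it moved to 0.03 with TMM factors. The 5 RNAs with an SPNCRNA identifier other than ter1 and SPNCRNA.445, the pair included, ranged from -0.16 to 0.06, with 0 below an adjusted p-value of 0.05. The 3 snRNAs snu2, snu4 and snu6 ranged from -0.70 to -0.03, with an adjusted p-value below 0.05 for 1 of them, snu2, and the 5 snoRNAs from -0.22 to 0.04, with 0.

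**Figure D3:**
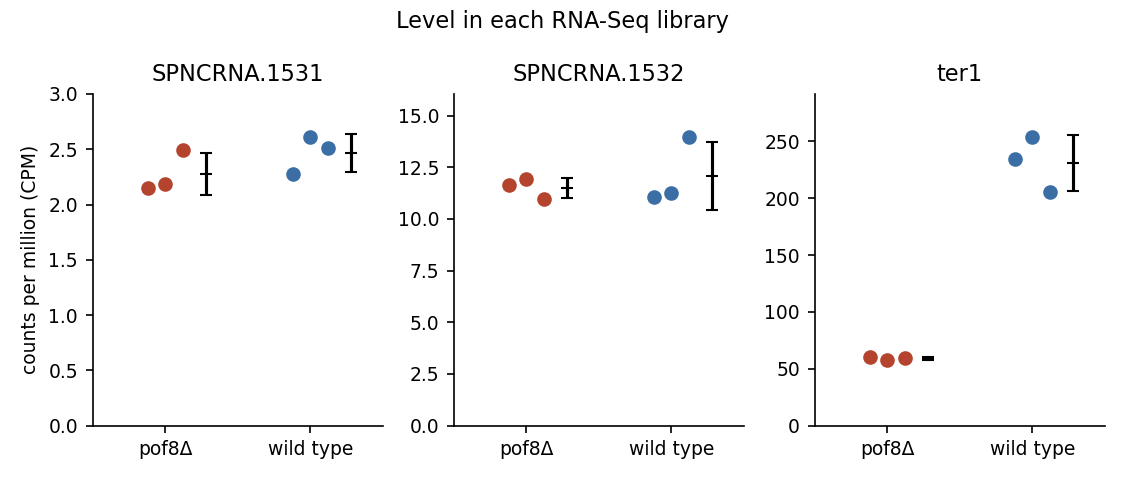
CPM (y axes from 0, different scales) of SPNCRNA.1531, SPNCRNA.1532 and ter1 in each RNA-Seq library, with pof8Δ on the left and wild type on the right. Circles are libraries and black marks are the mean and SD of 3. The groups overlap for both members of the pair, and the 3 pof8Δ libraries lie at 57.9 to 60.3 CPM for ter1, below the 205 to 254 CPM of wild type.

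Each member was also set against ter1 within the same library. The log2 ratio of SPNCRNA.1531 to ter1 counts was -4.71 ± 0.117 in pof8Δ and -6.55 ± 0.173 in wild type (SD, n = 3 each), a difference of 1.84 (exact two-sided permutation test p = 0.10, the smallest possible, adjusted over 3 tests 0.15). For SPNCRNA.1532 it was -2.37 ± 0.0821 in pof8Δ and -4.26 ± 0.336 in wild type, a difference of 1.89 (exact permutation test p = 0.10, adjusted 0.15). The 3 pof8Δ libraries lay above the 3 wild type libraries for both genes. With 3 libraries in each group this permutation test cannot give a p below 0.10, and the difference carries the fall of ter1 given above.

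For its place in the Lsm8 IP, the pair was scarce in whole-cell RNA. Per length, SPNCRNA.1531 had a mean of 0.945 RPKM in pof8Δ and 1.02 RPKM in wild type, and SPNCRNA.1532 had 7.46 and 7.84 RPKM. Over the 6 libraries SPNCRNA.1531 was the lowest of the 40 RNAs by RPKM and SPNCRNA.1532 was in position 35 from the top, while the median RNA had 193 RPKM. Divided by the mean CPM of the 6 libraries, the Lsm8 IP held 30090 reads per CPM of SPNCRNA.1531 and 6042 per CPM of SPNCRNA.1532. The quotient uses no gene length, but the assays need not cover the same part of a gene. The IP reads of SPNCRNA.1532 lay almost wholly outside SPNCRNA.402, while its CPM is a stranded count over the whole gene. The numerators are the counts that chose the genes, and the same reads may be counted in both, so these values are no separate measure of either gene and their difference follows the RNA-Seq level. By this quotient the positions were 3 and 4 of 40, behind snu4 with 115400 and snu6 with 58740, and well ahead of snR36 with 1639. The median RNA had 30.8 reads per CPM, and ter1, 145 CPM, had 353. In the control IP the pair had 14.8 and 2.54 reads per CPM, positions 7 and 16, where the median RNA had 1.501. The IP and RNA-Seq libraries differ in read length, strand and removal of rRNA, the 40 RNAs were listed for their signal in the Lsm8 IP, and short RNAs such as those of snu4 and snu6 are counted in the RNA-Seq only as far as they were captured, so this order is a description.

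**Figure D4:**
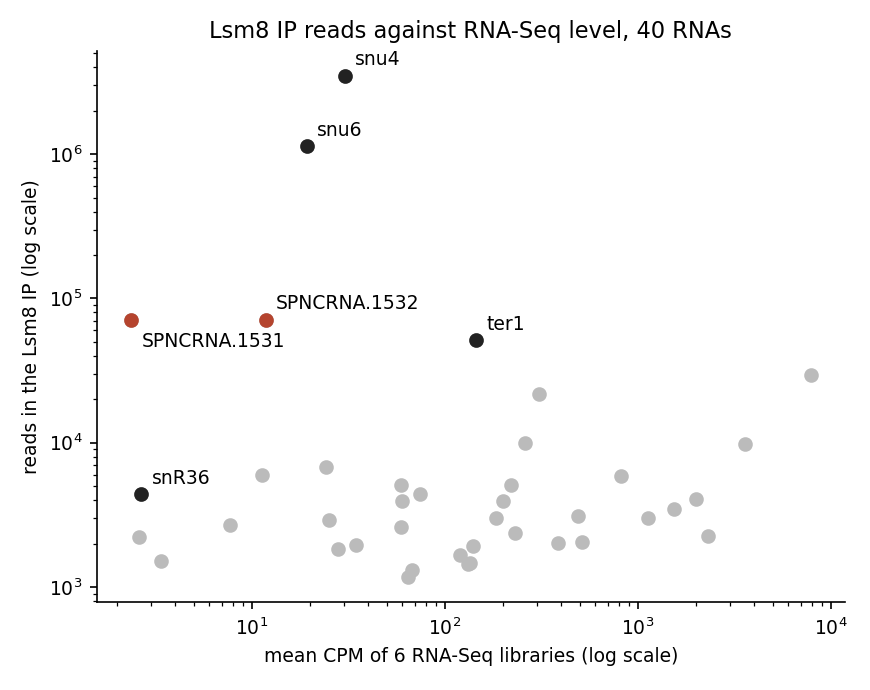
Reads in the Lsm8 IP (y axis, log scale, 1 library) against mean CPM of the 6 RNA-Seq libraries (x axis, log scale) for the 40 RNAs with counts in both. SPNCRNA.1531 and SPNCRNA.1532 (red) stand side by side at 71324 and 71287 reads and apart at 2.37 and 11.8 CPM.

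Across the 6 RNA-Seq libraries, the summed pair varied little, from 13.5 to 14.1 CPM in pof8Δ and from 13.3 to 16.5 CPM in wild type. The 3 other listed RNAs whose log2 CPM followed it most closely were the ribosomal protein gene rps3002 (Pearson r = 0.904 over 6 libraries), the mitochondrial ribosomal protein gene mrps16 (0.878) and mug134 (0.874). The points share the libraries and their depth, and wild type library 3 holds the highest value of the pair.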

How the data were processed

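Fission yeast RNA was measured by RIP-Seq (1 Lsm8 IP and 1 control IP library) and by RNA-Seq (3 pof8Δ and 3 wild type libraries). Per the labels and the methods of the study, reads were aligned to ASM294v2 with STAR 2.5.2b. For the RIP-Seq, the authors ignored strand when counting the reads of each gene that mapped uniquely and without ambiguity, and the RNA-Seq reads were also counted where unambiguous. They deposited a signal (each count over the median of its library) and the ratio of the Lsm8 IP to the control IP. Whole reads came back for every gene when the Lsm8 signal was multiplied by 96, and for the control IP when the signal was divided by the ratio and multiplied by 37 (tolerance 1e-06). The counts of 98 genes with reads in the control IP only could not be worked back and were taken to lie below the median. The deposited RNA-Seq table holds the read count per library of 40 RNAs, of 44 listed, and an average RPKM, from which library totals and gene lengths were worked back. The columns of the authors' own comparison (log2 fold change, average log2 CPM, likelihood ratio, p-value and adjusted p-value) were not used.

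Counts were scaled by library totals and tested by the quasi-likelihood F test of edgeR 4.0.16 under R 4.3.3, with p-values adjusted over the 40 RNAs (Benjamini-Hochberg). TMM scaling over all genes could not be computed from the listed RNAs. All 40 RNAs had at least 1 CPM in 3 libraries. The fit was tested on simulated data first. Ratios of IP reads have exact Clopper-Pearson intervals, which cover counting error only. Gene positions and sequences came from RefSeq, ASM294v3, in which 6846 of 7014 gene IDs were matched. Of the 40 RNAs with RNA-Seq counts, 37 were matched, and 11 had the same length there as behind the deposited RPKM. Intervals and overlaps given here may thus differ from those used for the counts. Python 3.11.15, SciPy 1.17.1, pandas 2.3.3, NumPy 2.4.6, Matplotlib 3.10.9 and DESeq2 1.42.0 were also used.

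The genes, lists and tests were chosen with earlier results of these data known. Named RNAs were the pair, ter1, snu6, snu4, neighbours of the pair, other overlapping listed pairs and the 3 RNAs most like the summed pair. Any further RNA was named with its value in view. Alternatives were made for scaling, test, filter, thresholds, the replicate number as a block and single libraries left out.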

Additional observations from a re-analysis of the deposited data

How the results depend on the processing

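Neither member was called in any of 12 alternative fits, with adjusted p-values from 0.592 to 0.958 for SPNCRNA.1531 and from 0.658 to 0.915 for SPNCRNA.1532 (edgeR or DESeq2, Benjamini-Hochberg adjustment). The log2 fold change of SPNCRNA.1531 stayed below 0, from -0.19 to -0.01. That of SPNCRNA.1532 turned to 0.029 with TMM factors over the 40 RNAs and to 0.022 with DESeq2's size factors over them, both of which moved the median of the 40 RNAs from -0.07 to 0.03 or 0.02, and with 1 library left out it ranged from -0.13 to 0.046. The value above 0 was that without wild type replicate 3. ter1 was called in all 12, from -2.04 to -1.87. A fit with a replicate block gave -0.12 for SPNCRNA.1531, -0.06 for SPNCRNA.1532 and -1.96 for ter1, and no call changed. Same-numbered libraries correlated at 0.335, -0.677 and 0.199 in their deviations, so the numbers were not taken as pairs. With 1 library left out, 1 to 2 RNAs were called lower (2 without pof8Δ replicate 3 and 2 without wild type replicate 3), and with a log2 threshold of 0.58 it was 3. The share of SPNCRNA.1532 in the pair differed between groups by -0.399 to 1.501 percentage points with 1 library left out, being -0.399 without wild type replicate 2 and -0.0259 without pof8Δ replicate 2. The log2 ratios to ter1 differed by 1.77 to 1.94 for SPNCRNA.1531 and by 1.78 to 2.09 for SPNCRNA.1532. With total counts as the scale, the IP ratios were 291 for SPNCRNA.1531 and 339 for SPNCRNA.1532 and 18 RNAs were enriched in place of 34. With a minimum difference of 20 it was 21. The cause was not tested. The remaining scalings left the ratios between 785 and 1126. With 35 and 30 control reads and 1 library per IP, the depth of the control IP limits the ratios.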
